A study of Mus musculus with 8 samples.

Results

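The alpha-chain clonotypes whose complementarity-determining region 3 (CDR3) lacked a canonical end were examined in endogenous CD8+ T cells of tumor-bearing mice. A clonotype was a distinct CDR3 nucleotide sequence of a mouse with its V and J segment. It was a member when its translated CDR3 did not begin with cysteine, or did not finish with phenylalanine or tryptophan. Of 53249 alpha clonotypes in 8 mice, 1934 met this rule, and they held 2907 of 80000 reads (3.63%). No measured abundance entered the rule.

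A CDR3 is the loop where the V and J segments are joined during recombination in the thymus, and it carries most of the diversity of the T-cell receptor. By convention it runs from a conserved cysteine encoded by the V segment to a phenylalanine or tryptophan encoded by the J segment, which is followed by glycine, any residue and glycine. Alpha-chain recombination uses a long array of J segments and can occur repeatedly on the same allele, each round joining a more distant V to a more distant J.

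The mice were female C57BL/6 animals of 6 to 8 weeks bearing B16F10 melanoma, a transplantable mouse tumor line. All 8 received cyclophosphamide (300 mg/kg) on day 3, transferred Thy1.1+ CD8+ cells of Pmel-1 mice (whose transgenic receptor recognizes the melanoma antigen gp100) on day 5, and interleukin-2 (10000 IU daily for 3 days from day 5). The 3 CTXpre mice received no further agent, and the 5 CTXpre/CD4post mice also received the CD4-depleting antibody GK1.5 (200 µg) on days 10, 17 and 24. Endogenous (Thy1.1-) CD8+ T cells were sorted on day 25 from pooled inguinal lymph nodes and spleen, a gate that leaves out the donor Pmel-1 cells, and these libraries hold receptor transcripts only, so Cd8a and Thy1 could not be read in them. Carry-over of the donor receptor through the gate was not analysed here. Each library was deposited at 10000 alpha reads and held 5043 to 7695 clonotypes. The methods name no molecular identifiers. In bulk cells, more cells of a clone and more receptor RNA per cell cannot be told apart.

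One pair of libraries stood apart. Of the 28 alpha clonotypes with at least 10 reads in CTXpre/CD4post mouse 1 that were absent from the 6 remaining mice, 18 were also found in CTXpre/CD4post mouse 2. In the other direction, of the 14 such clonotypes of mouse 2, 0 were found in mouse 1. In the 27 other pairs at most 4 such clonotypes were carried over in either direction. Among members, these 2 libraries had 13 in common against 5 to 17 in other pairs, and 5 members were found only in them against 0 to 9 in other pairs. The shares of shared clonotypes are given with and without mouse 2.

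Nearly all noncanonical ends came from 2 J segments, TRAJ7 and TRAJ44. Of the 1934 members, 1172 (60.6%) were TRAJ7 clonotypes and 581 (30.0%) were TRAJ44 clonotypes that differed only at the end, and together they held 2667 of the 2907 member reads (91.7%). None of the TRAJ7 or TRAJ44 clonotypes ended canonically. In the mouse genome (GRCm38, plus strand), TRAJ7 lies at chr14:54211470-54211528 and TRAJ44 at chr14:54173690-54173750, and both are annotated as J genes of the alpha locus. The germline sequences are shown with their neighbors on either side that were used in these libraries, since the difference is in the codon at the CDR3 end, printed in capitals.
TRAJ45: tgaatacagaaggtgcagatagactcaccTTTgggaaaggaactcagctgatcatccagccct
TRAJ44: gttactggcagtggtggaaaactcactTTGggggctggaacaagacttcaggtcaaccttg
TRAJ43: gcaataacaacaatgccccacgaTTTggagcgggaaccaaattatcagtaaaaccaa
TRAJ9: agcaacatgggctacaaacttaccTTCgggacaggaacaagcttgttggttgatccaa
TRAJ7: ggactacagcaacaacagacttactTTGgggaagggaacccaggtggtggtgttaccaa
TRAJ6: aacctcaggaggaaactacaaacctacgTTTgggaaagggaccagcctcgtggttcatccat
TRAJ7 and TRAJ44 carry TTG, a leucine codon, where the 4 neighbors carry a phenylalanine codon. In each of the 6 segments this codon is followed by a glycine codon, another codon and a second glycine codon. Among the 43 TRAJ segments named in the libraries, 39 carried a phenylalanine codon there, 2 (TRAJ33 and TRAJ38) the tryptophan codon TGG, and 2 the leucine codon. Of 1755 TRAJ7 and TRAJ44 clonotypes, 1754 ended with TTG, and 1 clonotype of 1 read ended with TTA, also leucine.

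The end alone differed in 1780 clonotypes, 27 of them of other J segments, the start alone in 151, and both ends in 3. By letter, leucine closed 1769 clonotypes (2684 reads) and was the only end letter that reached 10 reads in at least 3 mice. Serine closed 8 clonotypes, glycine 2, and methionine, proline, valine and tyrosine 1 each. Altered starts were spread over 16 letters, led by tryptophan (29 clonotypes, 31 reads), arginine (22 and 27), serine (21 and 38) and tyrosine (20 and 25). No start letter reached 10 reads in more than 1 mouse.

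Member reads per 10000 were 304, 386 and 364 in CTXpre mice 1 to 3 and 387, 361, 394, 362 and 349 in CTXpre/CD4post mice 1 to 5. The 2 groups overlapped, and CTXpre mouse 1 was the lowest of the 8. The share was 3.51% ± 0.42 (SD, n = 3) in CTXpre and 3.71% ± 0.19 (SD, n = 5) in CTXpre/CD4post mice (exact two-sided Mann–Whitney test, p = 0.786; the smallest p this design allows is 0.0357). The 95% Wilson interval of a single library ran from 2.72 to 3.39% in CTXpre mouse 1 and from 3.58 to 4.34% in CTXpre/CD4post mouse 3, the highest, and covers counting error only. As a share of clonotypes, members made up 3.61% ± 0.32 and 3.63% ± 0.34 (exact p = 1). Among clonotypes of at least 2 reads, the member read share was 3.22% in CTXpre and 3.79% in CTXpre/CD4post mice (exact p = 0.0357). With TRAJ7 left out and clonotypes of 1 read kept, the member read share was 1.14% and 1.53% (exact p = 0.0357). These are 2 of 8 alternative settings of this comparison, their p is unadjusted, and the other 6 gave p of 0.464 or more.

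**Figure D1:**
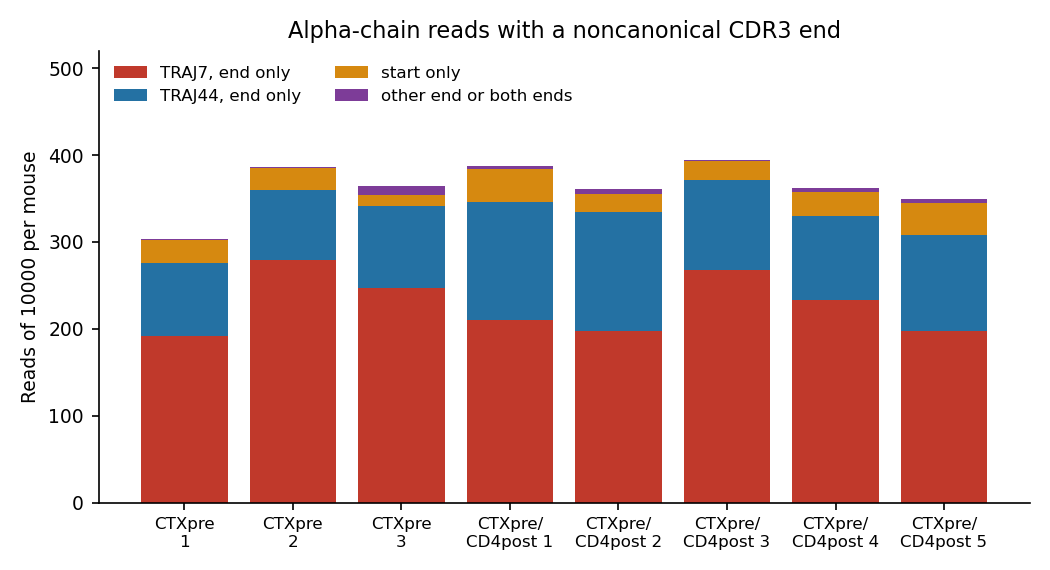
Stacked bars give the alpha reads with a noncanonical CDR3 end (of 10000) in each of the 8 mice, split into TRAJ7 ends, TRAJ44 ends, altered starts and the remainder. The bars reach 304 to 394 reads, TRAJ7 fills the largest part in every mouse, and the TRAJ44 part is 81 to 94 reads in CTXpre and 97 to 137 reads in CTXpre/CD4post mice.

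TRAJ7 ends accounted for 192, 279 and 247 reads in the CTXpre mice and 210, 198, 268, 233 and 198 reads in the CTXpre/CD4post mice. These values overlapped between the groups (2.39% ± 0.44 and 2.21% ± 0.30). TRAJ44 ends accounted for 84, 81 and 94 reads in the CTXpre mice and 136, 137, 103, 97 and 110 reads in the CTXpre/CD4post mice. Here the groups did not overlap, with means of 0.863% ± 0.068 and 1.17% ± 0.19 (exact Mann–Whitney p = 0.0357, not adjusted for the J segments looked at). Such a separation was not particular to TRAJ44. Canonical TRAJ5 reads, 77 to 79 in CTXpre and 42 to 70 in CTXpre/CD4post mice, did not overlap either. The 2 highest TRAJ44 values belonged to CTXpre/CD4post mice 1 and 2, the libraries that shared abundant clonotypes. The number of TRAJ44 clonotypes overlapped between groups (67 to 76 and 53 to 95). Reads of each J segment, divided into canonical and noncanonical CDR3s, were compared across the 43 features that reached 10 reads in 3 or more mice by edgeR's quasi-likelihood test. Of 40 noncanonical J features, only those of TRAJ7 and TRAJ44 passed this filter. No feature passed an adjusted p of 0.05, which is 0% of those tested, and 3 features, none of them noncanonical, had an unadjusted p under 0.05. TRAJ44 differed by a log2 fold change of 0.43 ± 0.22 (SE; CTXpre/CD4post over CTXpre; edgeR adjusted p = 0.665, unadjusted p = 0.0619) and TRAJ7 by -0.11 ± 0.16 (edgeR adjusted p = 0.951). With DESeq2 the unadjusted p of TRAJ44 was 0.0153 and its adjusted p 0.258.

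None of the 4 tests by end class passed the threshold. The share of reads with an altered end alone was 3.29% ± 0.45 in CTXpre and 3.42% ± 0.22 in CTXpre/CD4post mice (exact Mann–Whitney p = 1). The share with an altered start alone was 0.213% ± 0.072 and 0.288% ± 0.083 (exact p = 0.393, adjusted p = 0.786 over 4 tests). Altered starts numbered 26, 25 and 13 reads in the CTXpre mice and 38, 20, 22, 27 and 37 reads in the CTXpre/CD4post mice. The 3 clonotypes altered at both ends held 4 reads, in CTXpre mice 1 and 3 and CTXpre/CD4post mouse 1.

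Against the other J segments, TRAJ7 was of middling use and TRAJ44 was rare. By total reads TRAJ7 ranked 18 of 44 J segments (2.28% of reads, 1.92 to 2.79% across mice) and TRAJ44 ranked 38 (1.05%, 0.81 to 1.37%). TRAJ22, with 6.39% of reads, was the highest. Within each mouse TRAJ7 ends exceeded TRAJ44 ends, on average by 1.23 ± 0.48 percentage points (SD, n = 8; higher in 8 of 8 mice; exact sign-flip test, p = 0.00781, the smallest 8 mice can give; adjusted p = 0.0127 over 13 such comparisons added after the data were seen). The ratio of TRAJ44 to TRAJ7 reads ran from 0.290 in CTXpre mouse 2 to 0.692 in CTXpre/CD4post mouse 2. Reads depend on amplification as well as on cells, and their part in these levels was not tested.

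**Figure D2:**
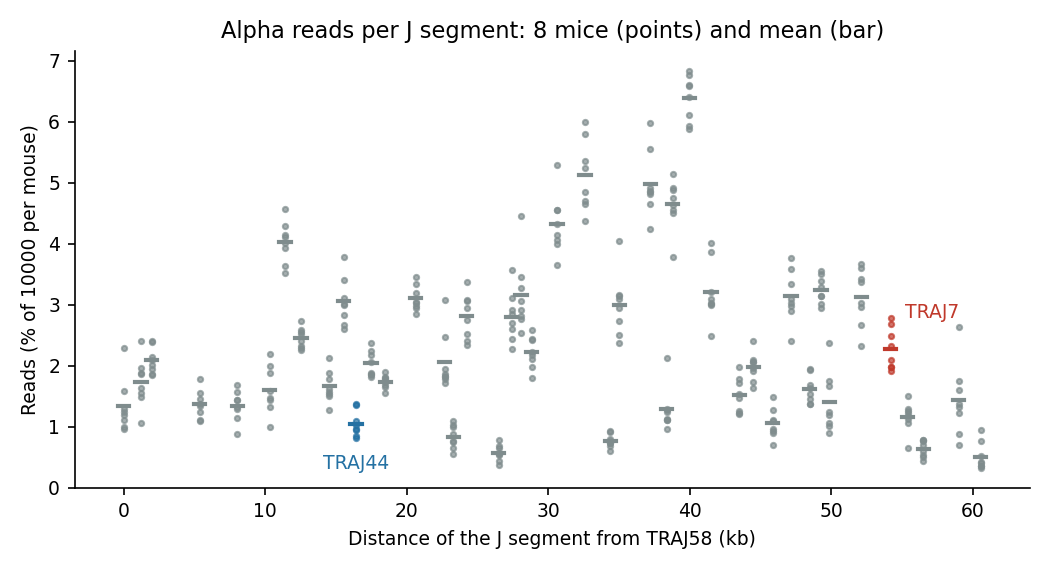
Reads of each TRAJ segment as a percentage of the 10000 alpha reads of a mouse (points, 8 mice; bar, mean) against the distance of the segment from TRAJ58 in kb. TRAJ7 (red, 1.92 to 2.79%) lies within the range of its neighbors, and TRAJ44 (blue, 0.81 to 1.37%) lies near the low end.

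The V segments joined to the 2 leucine J segments differed along the locus. TRAJ44 lies 16.4 kb and TRAJ7 54.2 kb downstream of TRAJ58, the first J segment used here. V segments joined to TRAJ7 started on average 1018 kb ± 21 (SD, n = 8) upstream of TRAJ44, those joined to TRAJ44 857 kb ± 69, and those of canonical clonotypes 910 kb ± 6. The V segments of TRAJ7 were more distant than those of canonical clonotypes in 8 of 8 mice, by 108 kb ± 23 (exact sign-flip p = 0.00781, adjusted p = 0.0127). They were also more distant than those of TRAJ44 in 8 of 8 mice, by 161 kb ± 57 (exact sign-flip p = 0.00781, adjusted p = 0.0127). TRAJ44 against canonical clonotypes gave -53.0 kb ± 71.0, lower in 5 of 8 mice (exact sign-flip p = 0.117). Many V segments of this strain exist in near-identical copies named with D or N. When the copies were given their mean position, the distances between TRAJ7 and canonical and between TRAJ7 and TRAJ44 were 49.9 kb and 63.3 kb, again positive in 8 of 8 mice, and TRAJ44 against canonical gave -13.3 kb (higher in 4 of 8 mice; exact sign-flip p = 0.312). Along the array as a whole, the mean V distance ran from 654 kb for TRAJ58 to 1021 kb for TRAJ6, and among 43 TRAJ segments TRAJ7 ranked 3 and TRAJ44 ranked 31 from the highest.

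**Figure D3:**
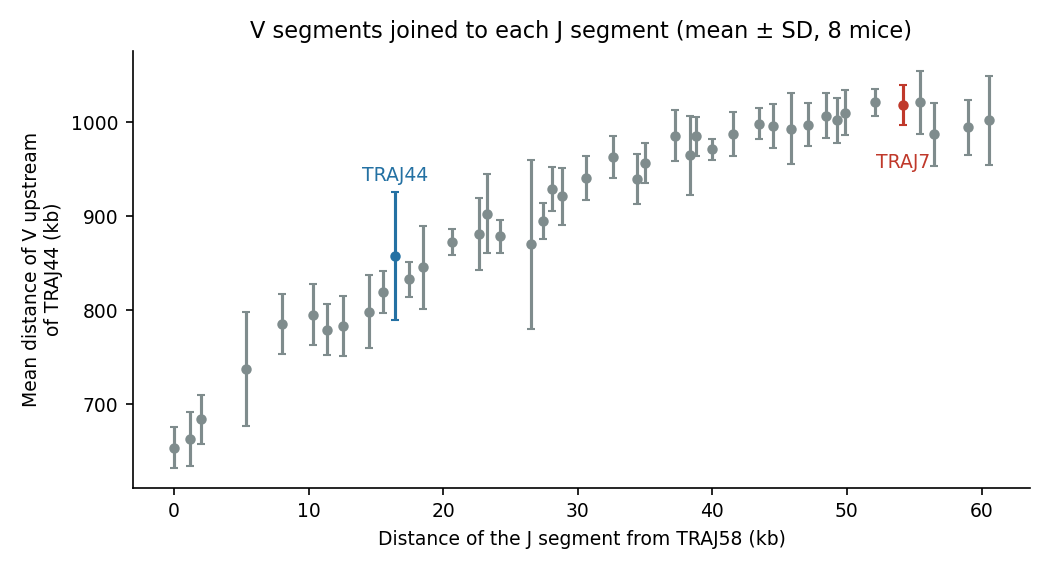
Mean distance (kb, ± SD over 8 mice) of the V segments joined to each TRAJ segment, measured upstream from TRAJ44, against the distance of the J segment from TRAJ58 (kb). TRAJ44 (blue, 858 kb over all its clonotypes) and TRAJ7 (red, 1018 kb) sit among their neighbors on a curve that climbs from 654 kb at TRAJ58; the vertical axis does not start at 0.

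By segment, TRAV12N-3 held the most member reads (320, of which 276 with TRAJ7). It formed 13.6% ± 3.9 (SD, n = 8) of the TRAJ7 clonotypes of a mouse against 5.83% ± 1.01 of the canonical and 3.16% ± 2.16 of the TRAJ44 clonotypes, and its share in TRAJ7 was above the canonical share in 8 of 8 mice. TRAV3N-3 (6.90% ± 2.09 of TRAJ7, 2.53% ± 0.40 of canonical, 0.444% ± 0.909 of TRAJ44 clonotypes) and TRAV14N-1 (5.91% ± 2.27, 2.82% ± 0.40 and 0.791% ± 0.943) were likewise above the canonical share with TRAJ7 in 8 of 8 mice. TRAV16N, second by member reads (177), was arranged the other way, at 3.09% ± 2.25 of TRAJ7 and 8.16% ± 3.52 of TRAJ44 clonotypes against 5.92% ± 0.45 of canonical ones. Its share was above the canonical one in 1 of 8 mice with TRAJ7 and in 4 of 8 mice with TRAJ44, so the mice were evenly divided for TRAJ44. TRAV16D-DV11 formed 5.58% ± 2.77 of TRAJ44 against 2.98% ± 0.33 of canonical clonotypes, and was above the canonical share in 7 of 8 mice. With the D and N copies of a segment joined, the excess with TRAJ7 was smaller relative to canonical, at 15.6% ± 3.6 against 7.61% ± 1.04 for TRAV12-3, 8.03% ± 1.90 against 5.52% ± 0.50 for TRAV3-3 and 8.28% ± 2.04 against 5.30% ± 0.47 for TRAV14-1, each above canonical in 8 of 8 mice. The low share of TRAV3N-3 with TRAJ44 was not seen for the joined TRAV3-3 (6.99% ± 3.85, above canonical in 4 of 8 mice). Over the whole TRAV14 family the values were 15.2% ± 2.5 of TRAJ7 and 12.4% ± 1.3 of canonical clonotypes (6 of 8 mice). TRAV16N and TRAV16D-DV11 joined formed 5.55% ± 2.79 of TRAJ7, 13.7% ± 3.5 of TRAJ44 and 8.90% ± 0.65 of canonical clonotypes, and were above canonical with TRAJ44 in 8 of 8 mice and with TRAJ7 in 1 of 8. The other 5 segments of the 10 with the most member reads were TRAV7D-2, TRAV7-5, TRAV7N-5, TRAV12N-2 and TRAV7-3, with 65 to 126 reads each (TRAV7D-3 tied with TRAV7-3 at 65). In this order, they were above the canonical share with TRAJ7 in 6, 1, 7, 6 and 6 of 8 mice. With TRAJ44 they were above it in 1, 6, 3, 3 and 3 of 8 mice. The 10 segments were chosen by member reads, most of which were TRAJ7 reads, so the choice itself favors an excess with TRAJ7. These shares are given as a description, with no test.

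Reads per V segment and end class were compared between the groups over 112 features, of which 9 of 102 noncanonical ones had enough reads. With edgeR's quasi-likelihood test none passed an adjusted p of 0.05 (0%), and 7, of which 1 was noncanonical, had an unadjusted p under 0.05. That feature was TRAV16N, with 14, 13 and 11 noncanonical reads in the CTXpre mice and 42, 28, 16, 39 and 14 in the CTXpre/CD4post mice. Both groups held a mouse with 14 reads. Its log2 fold change was 1.16 ± 0.39 (SE; edgeR adjusted p = 0.325, unadjusted p = 0.0058), and 30 of the 42 reads of CTXpre/CD4post mouse 1 belonged to a single clonotype. The same clonotype held 7 of the 28 reads of CTXpre/CD4post mouse 2, the library that also held abundant clonotypes of mouse 1. Canonical TRAV16N reads were also among the 7 features, with 592, 631 and 576 reads in CTXpre and 619, 668, 722, 713 and 935 in CTXpre/CD4post mice. Their log2 fold change was 0.33 ± 0.15 (SE; edgeR adjusted p = 0.693, unadjusted p = 0.0396).

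TRAJ7 clonotypes had fewer unassigned junction bases than canonical ones. The J end was intact up to the first germline base in 37.5% of TRAJ7 clonotypes, in 18.2% of TRAJ44 and in 22.0% of canonical clonotypes. The median number of missing germline J bases was 1 in TRAJ7 and 3 in both TRAJ44 and canonical clonotypes. Bases assigned to no segment averaged 1.53 ± 0.17 per TRAJ7 clonotype (SD of the means of 8 mice), 2.04 ± 0.38 per TRAJ44 clonotype and 2.12 ± 0.02 per canonical clonotype. This count follows the deposited V end and J start, which can overlap, and was set to 0 where they did. How many of these bases were added without a template was not tested. TRAJ7 was lower than canonical in 8 of 8 mice (difference -0.58 ± 0.17 bases; exact sign-flip p = 0.00781, adjusted p = 0.0127). TRAJ44 gave a difference of -0.08 ± 0.37 from canonical (exact sign-flip p = 0.562). By mean unassigned bases TRAJ7 ranked 42 of 44 J segments, counted from the highest, and TRAJ44 ranked 19. A J base that was removed and replaced by the same base counts as germline, so trimming is a lower bound.

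**Figure D4:**
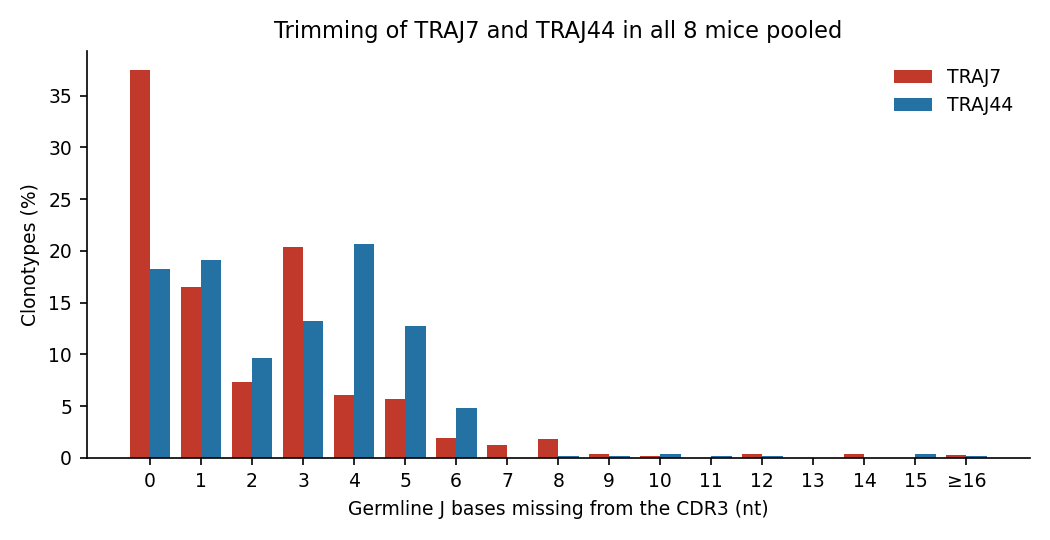
Share of TRAJ7 (red, 1172) and TRAJ44 (blue, 581) clonotypes of the 8 mice by the number of germline J bases missing from the CDR3. TRAJ7 has its highest bar at 0 bases (37.5%) and a second at 3 bases (20.4%), while TRAJ44 is highest at 4 bases (20.7%).

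CDR3 length differed by class. All members together differed from canonical clonotypes by -0.48 ± 0.29 nucleotides (40.5 against 41.0 nucleotides; lower in 8 of 8 mice; exact sign-flip p = 0.00781, adjusted p = 0.0104 over 4 tests). With TRAJ7 and TRAJ44 ends alone the difference was 0.13 nucleotides in the opposite direction (exact sign-flip p = 0.148), and among J segments that hold both kinds, which leaves out TRAJ7 and TRAJ44, it was -6.31 nucleotides (exact sign-flip p = 0.00781). TRAJ44 clonotypes were longer than canonical ones by 1.11 ± 0.26 nucleotides (8 of 8 mice; exact sign-flip p = 0.00781, adjusted p = 0.0127), and TRAJ7 clonotypes differed by -0.37 ± 0.34 (lower in 6 of 8 mice; exact sign-flip p = 0.0312, adjusted p = 0.0406). Clonotypes with an altered start were shorter than canonical ones, by a difference of -6.89 ± 1.85 nucleotides (lower in 8 of 8 mice; exact sign-flip p = 0.00781, adjusted p = 0.0127). The germline J sequences printed above contribute 28 nucleotides (TRAJ7) and 30 nucleotides (TRAJ44) up to and including the end codon.

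The 7 members with the most reads over all libraries were of the same 2 J segments. They are printed 5′ to 3′ from the first codon of the CDR3 to the last, with the leucine codon in capitals, to show how much of the germline J each one keeps.
TRAV16N-TRAJ44: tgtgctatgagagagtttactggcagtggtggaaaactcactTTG
TRAV12N-3-TRAJ7: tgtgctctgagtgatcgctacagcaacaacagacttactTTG
TRAV7D-3-TRAJ7: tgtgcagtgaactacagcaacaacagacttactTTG
TRAV3N-3-TRAJ7: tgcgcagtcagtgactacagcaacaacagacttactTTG
TRAV7-3-TRAJ7: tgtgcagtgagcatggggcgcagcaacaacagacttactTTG
TRAV12N-2-TRAJ7: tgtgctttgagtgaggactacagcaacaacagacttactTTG
TRAV7D-2-TRAJ44: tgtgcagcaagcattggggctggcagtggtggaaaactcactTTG
The TRAV16N-TRAJ44 clonotype had 39 reads, of which 30 were in CTXpre/CD4post mouse 1, 7 in mouse 2, 1 in mouse 4 and 1 in CTXpre mouse 3. The TRAV7D-3-TRAJ7 clonotype had 33 reads, all in CTXpre/CD4post mouse 4, where 6 alpha clonotypes were more abundant. The TRAV3N-3-TRAJ7 clonotype had 31 reads in 5 mice, 21 of them in CTXpre/CD4post mouse 5. The TRAV7-3-TRAJ7 clonotype was the only member with at least 10 reads in a CTXpre mouse (19 reads in mouse 2, where 2 alpha clonotypes were more abundant), and it lacked 6 germline J bases. The TRAV12N-2-TRAJ7 clonotype had 19 reads, all in CTXpre/CD4post mouse 5, and kept the J segment from its first germline base. The TRAV7D-2-TRAJ44 clonotype had 17 reads, also all in CTXpre/CD4post mouse 5.

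The TRAV12N-3-TRAJ7 clonotype printed above was the only member found in all 8 mice. It had 3, 8 and 7 reads in the CTXpre mice and 2, 4, 3, 6 and 2 reads in the CTXpre/CD4post mice, and so was widespread and never abundant. No base of it was left unassigned. Its amino acid sequence was encoded by 8 different nucleotide sequences over the libraries.

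Most members, like most clonotypes, were seen in 1 read. Of 1934 members, 1469 had 1 read (76.0%), 450 had 2 to 9 reads, and 15 had at least 10 reads. Within mice the share of members with 1 read was 75.0% ± 7.5 against 74.8% ± 5.2 of canonical clonotypes, a difference of 0.17 ± 3.37 percentage points (higher in 4 of 8 mice; exact sign-flip p = 0.859). Between the groups the share of members with 1 read was 78.7% ± 5.6 in CTXpre and 72.7% ± 8.2 in CTXpre/CD4post mice (exact Mann–Whitney p = 0.393). Altered starts differed, as 83.3% ± 10.3 of them had 1 read, 8.49 ± 6.64 percentage points above canonical clonotypes (8 of 8 mice; exact sign-flip p = 0.00781, adjusted p = 0.0127). Compared with canonical clonotypes of the same J segments, which leaves out TRAJ7 and TRAJ44 since these held no canonical clonotype, members had a higher share with 1 read by 10.7 percentage points (exact sign-flip p = 0.00781).

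Of the 15 members with at least 10 reads, 9 were TRAJ7 ends, 4 TRAJ44 ends and 2 altered starts, and 11 were found in 1 mouse only. They numbered 0, 1 and 0 in the CTXpre mice and 1, 1, 2, 3 and 7 in the CTXpre/CD4post mice (exact Mann–Whitney p = 0.0714). Canonical clonotypes of this size numbered 12, 11 and 15 in the CTXpre mice and 42, 20, 33, 58 and 95 in the CTXpre/CD4post mice. As a share of all clonotypes with at least 10 reads, members made up 2.78% ± 4.81 in CTXpre and 4.92% ± 1.67 in CTXpre/CD4post mice (exact Mann–Whitney p = 0.518). The largest member had 33 reads and the largest canonical clonotype 138.

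Sharing between mice was highest in TRAJ7 clonotypes among the classes compared. A clonotype was counted as shared when the same CDR3 nucleotides, V and J occurred in at least 1 other mouse. Of TRAJ7 clonotypes, 19.7% were shared, of TRAJ44 clonotypes 10.8%, of canonical clonotypes 14.6%, and of the 154 clonotypes with an altered start and the 27 with another altered end, none. The share of TRAJ7 was above that of canonical clonotypes in 8 of 8 mice, by 5.24 ± 2.11 percentage points, and that of TRAJ44 was above it in 1 of 8 mice (-3.83 ± 4.22). Over all members the difference was 0.55 ± 2.20 percentage points. These within-mouse differences were not tested, because sharing is mutual and the 8 values depend on each other. TRAJ7 ranked 4 of 44 J segments by the share of shared clonotypes, and TRAJ44 ranked 28. With CTXpre/CD4post mouse 2 left out of the sharing, 19.4% of TRAJ7, 9.47% of TRAJ44 and 13.2% of canonical clonotypes were shared. TRAJ7 was then above canonical in 7 of 7 mice, by 6.40 ± 2.25 percentage points, TRAJ44 differed by -3.80 ± 4.49, and their ranks were 2 and 29. When the CDR3 nucleotides alone had to match, whatever the V and J names, the shares were 32.4, 21.9 and 27.5%, and TRAJ7 exceeded canonical clonotypes in 7 of 8 mice, by 5.13 ± 2.47 percentage points.

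**Figure D5:**
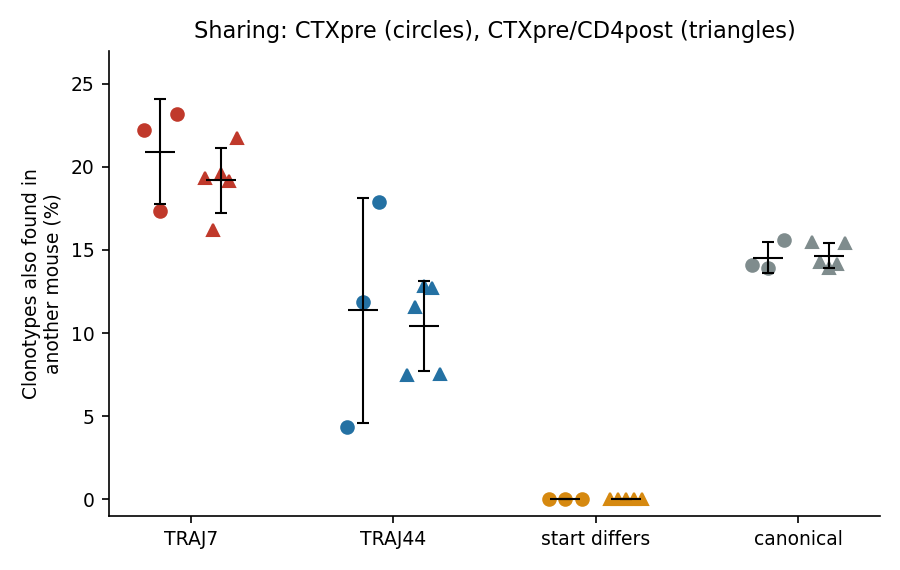
Share of clonotypes (%) also found in at least 1 other mouse for TRAJ7 ends, TRAJ44 ends, altered starts and canonical clonotypes; circles are the 3 CTXpre and triangles the 5 CTXpre/CD4post mice, with the mean and SD of each group. TRAJ7 values lie between 16.2 and 23.2%, TRAJ44 values between 4.35 and 17.9%, and all altered starts lie at 0.

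By group, 16.4% ± 3.0 of the members of CTXpre mice and 14.4% ± 1.5 of those of CTXpre/CD4post mice were shared (exact Mann–Whitney p = 0.393). Sharing was counted over all 8 mice without regard to group. The exact test reassigns the group labels over these fixed values, which requires that mice be exchangeable between groups and not that their values be independent. With CTXpre/CD4post mouse 2 left out of the sharing, these values were 15.8% and 13.7% (exact p = 0.857), and by CDR3 nucleotides alone 27.2% and 25.7% (exact p = 0.571). Of 120 distinct shared members, 78 (65%) occurred in both groups, 17 only in CTXpre and 25 only in CTXpre/CD4post mice. Of 3035 distinct shared canonical clonotypes, 1914 (63.1%) occurred in both groups, 331 only in CTXpre and 790 only in CTXpre/CD4post mice. Without mouse 2 there were 106 distinct shared members, of which 71 (67.0%) occurred in both groups, 19 only in CTXpre and 16 only in CTXpre/CD4post mice. Of 2405 distinct shared canonical clonotypes, 1585 (65.9%) then occurred in both groups, 371 only in CTXpre and 449 only in CTXpre/CD4post mice. In both settings the share of members found in both groups was near that of canonical clonotypes. Shared TRAJ7 clonotypes had fewer unassigned bases than those of 1 mouse (0.543 against 1.82 on average, and none at all in 67.4% against 36.2%). In TRAJ44 the values were 0.75 against 2.22, and in canonical clonotypes 0.927 against 2.33. Without mouse 2 these averages were 0.548 against 1.81 in TRAJ7, 0.636 against 2.2 in TRAJ44 and 0.883 against 2.31 in canonical clonotypes.

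Altered starts were a different kind of clonotype. The 154 clonotypes used 69 V and 38 J segments, and no J segment or V segment accounted for them as TRAJ7 and TRAJ44 did for the ends. In 106 of them the first codon was 1 base away from a cysteine codon (TGT or TGC), most often TGG (29 clonotypes), CGT (15) or TAT (15). Of these 106, 94 had 1 read, and 11 had a canonical counterpart in the same mouse that differed only in that base, with at most 2 reads. In the other 48 the first codon was 2 or 3 bases away. Of these, 38 had no CDR3 base assigned to the V segment, their median length was 30 nucleotides, and 34 had 1 read. Among all 53249 alpha clonotypes, 40 had no CDR3 base assigned to V, and all 40 were altered starts.

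The 2 altered starts with at least 10 reads were both of the second kind and were picked out for their size. They are printed with the first codon in capitals.
TRAV11D-TRAJ27: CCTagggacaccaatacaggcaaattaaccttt
TRAV12N-3-TRAJ13: TCAaattctgggacttaccagaggttt
The TRAV11D-TRAJ27 clonotype had 14 reads in CTXpre/CD4post mouse 4, and the TRAV12N-3-TRAJ13 clonotype had 13 reads in CTXpre/CD4post mouse 5. Neither was found in another mouse. They begin with a proline and a serine codon and encode 11 and 9 residues.

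Altered ends outside TRAJ7 and TRAJ44 were few. Including a clonotype altered at both ends, there were 28, and 25 of them ended with a codon 1 base away from the germline codon of their J segment, each with 1 read. The most frequent were TCT (7 clonotypes), CTT (6) and TTG (5). Only 1 of the 25 had a canonical counterpart in the same mouse that differed in that base alone. The other 3 ended 2 or 3 bases away and had a median length of 15 nucleotides.

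The beta chain of the same mice held far fewer noncanonical ends. Of 60131 beta clonotypes, 136 met the same rule, with 196 of 80000 reads, and 68 were altered at the end and 68 at the start. The beta share of reads was 0.32, 0.3 and 0.15% in the CTXpre mice and 0.2, 0.35, 0.27, 0.22 and 0.15% in the CTXpre/CD4post mice. The alpha share exceeded it by 3.39 ± 0.31 percentage points (8 of 8 mice; exact sign-flip p = 0.00781, adjusted p = 0.0104). Every TRAJ7 and TRAJ44 clonotype met the rule through its germline codon, and TRAJ7 and TRAJ44 ends held 2667 of the 2907 alpha member reads. The outcome of this test was therefore largely settled by the rule, and it shows little else about the chains. The remaining alpha members held 208 reads with the start alone altered, 28 with another end and 4 with both ends. The 68 altered beta ends were spread over 11 J segments, none with more than 20 reads. Of the beta members, 89.0% had 1 read.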

How the data were processed

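Members and lists were chosen with earlier results of these data known. CD8+ T-cell RNA (100 ng per mouse) was amplified by nested PCR for alpha and beta chains and sequenced. Per the methods, the authors trimmed reads with Scythe and Sickle, assigned clonotypes with MiXCR (version not given in the sources used here) and used VDJtools. The submitters' notes name mm10 and bcl2fastq. The deposited counts are whole reads per clonotype, down-sampled by the authors to 10000 per chain and mouse, and the deposited fractions are those counts divided by 10000. All alpha CDR3s were in frame without stops, so out-of-frame rearrangements were not analysed here.

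Groups were taken from the labels. Germline J sequences and V positions were read from GRCm38 with GENCODE vM21 annotation, and the CDR3 end was placed at the J position where the clonotypes ended. Shares were compared between 3 and 5 mice by exact two-sided Mann–Whitney tests and within mice by exact two-sided sign-flip tests. Read counts per J or V segment, split by end class and kept where 3 or more mice had 10 reads, were tested with edgeR (4.0.16, quasi-likelihood, TMM, Benjamini–Hochberg) and, as an alternative, DESeq2 (1.42.0), in R 4.3.3. The edgeR step was tested on simulated data. Python 3.11.15 with pandas 2.3.3 and scipy 1.17.1 was used otherwise. Nothing in the labels says whether mice shared a cage or day, and the deposited V names of near-identical copies may be interchangeable.

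Named items were the 10 J and 10 V segments with the most member reads, end letters reaching 10 reads in 3 or more mice, and the members with the most reads in all libraries together, in each mouse, or in all 8 mice; the text gives those the comparisons turn on. Alternatives covered the test, pairing by replicate number, leaving out each mouse, depth, the definition of an end, a clonotype or sharing, low counts, the main J segment, normalization and tool.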

Additional observations from a re-analysis of the deposited data

Results flagged for a closer look

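In 2 of 17 comparisons made within mice, the difference itself differed between the groups. The V segments of TRAJ44 clonotypes, set against those of canonical clonotypes, lay -127 kb away on average in CTXpre mice (-165 to -84.6 kb) and -8.93 kb in CTXpre/CD4post mice (-75.6 to 17.1 kb), a gap of 118 kb (exact Mann–Whitney p = 0.0357, the smallest the design allows). For TRAJ7 the values were 88.8 kb (83.4 to 92.4 kb) and 119 kb (102 to 158 kb), a gap of 30.6 kb (exact p = 0.0357). Adjusted over the 17 comparisons both p-values were 0.304. With near-identical V copies given their mean position, the gaps were 33.4 kb (exact p = 0.25) and 32.1 kb (exact p = 0.143), and the groups overlapped.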

How the results depend on the processing

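The exact and sign-flip tests rest on 3 and 5 or on 8 mice, libraries of 10000 reads leave most clonotypes at 1 read, and a clonotype missing from a library may be below 3 reads, or 0.03% of reads. Of the differences between groups (CTXpre/CD4post minus CTXpre), the member read share of 0.193 percentage points became 0.385 without TRAJ7 and 0.563 without clonotypes of 1 read (exact p = 0.0357 for each, against 0.786). The same difference became 0.118 when only the end letter counted and 0.0897 without the most abundant member. The member clonotype share of 0.0125 points became -0.0322 when only the end letter counted and -0.0016 when clonotypes were merged by amino acids, 0.249 without TRAJ7 (exact p = 0.0714) and 0.566 without clonotypes of 1 read (exact p = 0.143). The shared share of members, -2.0 points, became -0.574 without TRAJ7 (8.63 against 8.06%; exact p = 1) and -1.07 at 5000 reads per mouse (exact p = 0.393). Within mice, the 1-read share of members minus canonical, 0.169 points, became 10.7 among J segments that hold both kinds, which leaves out TRAJ7 and TRAJ44 by construction, and -0.895 with TRAJ7 and TRAJ44 members only. The length difference of -0.48 nucleotides became -6.31 among J segments that hold both kinds (exact p = 0.00781) and 0.13 with TRAJ7 and TRAJ44 members only. The difference in unassigned bases, -0.364, became 0.11 among J segments that hold both kinds and -0.0288 without TRAJ7 (exact p = 0.805). Where a construction does not show it, the cause was not tested. The settings with TRAJ7 and TRAJ44 members only, with averaged or joined V copies and those of sharing by class were chosen after seeing the data.

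Leaving out each mouse in turn moved the member read share from -0.044 (without CTXpre mouse 1) to 0.366, the clonotype share from -0.158 (without CTXpre mouse 1) to 0.159, and the shared share from -2.58 to 0.206 (without CTXpre mouse 3). It moved the 1-read share of members, -6.02 points between the groups, from -9.09 (without CTXpre/CD4post mouse 2) to -3.50 (without CTXpre mouse 2). It moved the 1-read share of members minus canonical from -0.438 (without CTXpre mouse 1) to 0.961, and the log2 fold change of TRAJ7 from -0.23 to 0.0326 (without CTXpre mouse 2). None of these was called in any of these settings. For the shares compared between groups this was fixed by the design and shows nothing about stability. With 1 mouse left out, the exact Mann–Whitney p cannot go below 0.0571 (3 against 4 mice) or 0.0952 (2 against 5 mice). The shared share minus that of canonical clonotypes, not tested, ran from 3.97 to 6.40 for TRAJ7, from -4.64 to -2.26 for TRAJ44 and from -0.429 (without CTXpre/CD4post mouse 3; -0.373 without CTXpre mouse 3) to 1.38 for all members, and by CDR3 nucleotides alone the last was -1.36. The other 3 differences tested within mice by design kept their direction and call. The numbers of J and V features called by edgeR or DESeq2 were 0 under every alternative run.

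Replicates 1 to 3 share numbers across the groups, but same-numbered mice did not deviate together (correlations of 0.06, -0.30 and -0.03 over J features). With the number as a block, the read share difference was 0.293 (exact sign-flip p = 0.5; 3 pairs cannot go below 0.25), that of clonotypes 0.215, of members with 1 read -2.02, of shared members -2.35, and the TRAJ44 log2 fold change 0.52 (edgeR unadjusted p = 0.0762). The block called no feature in either table.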
